A study of Sus scrofa with 15 samples.

Results

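The genes described here are grouped as feedback brakes on inflammatory signaling and mRNA: ZFP36, ZFP36L1, ZFP36L2, ZC3H12A, TNFAIP3, TNIP1, TNIP2, DUSP1, TSC22D3 and FKBP5. They were chosen by name for their known roles, with earlier results of these data known. The pig gene symbols were matched to the identifiers of the count table. Of the 10 genes named, 9 had an entry among the 31908 genes of the table, and TSC22D3 had none and was skipped. All 9 passed the filter on low counts and were tested.

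The data are RNA sequencing read counts from the liver of male Duroc x Large White x Landrace piglets, with 3 CON and 3 LPS libraries. The LPS piglets were injected intraperitoneally with 80 μg/kg of lipopolysaccharide (LPS), a bacterial cell wall component that Toll-like receptor 4 senses, and the CON piglets with sterile saline. Liver was taken 4 h later. The libraries hold the input fraction of an m6A immunoprecipitation experiment, that is, fragmented polyadenylated RNA that was not exposed to the m6A antibody, and the immunoprecipitated libraries were not analysed here. The labels do not say that each library is a separate piglet, so p-values measure only the spread between these libraries, which may be technical.

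Inflammatory signals induce genes that end the same signals, and 3 kinds of brake are represented here. ZFP36 (tristetraprolin), ZFP36L1 and ZFP36L2 bind AU-rich elements of cytokine mRNAs and recruit the deadenylation machinery, while ZC3H12A (regnase-1) is an endonuclease that cuts stem loops in such mRNAs. TNFAIP3 (A20) edits ubiquitin chains on signaling proteins upstream of NF-κB, and TNIP1 and TNIP2 are ubiquitin-binding partners of A20. DUSP1 removes phosphates from p38 and JNK. FKBP5 is a co-chaperone induced by glucocorticoids that lowers the hormone affinity of the glucocorticoid receptor. The feedback of FKBP5 thus acts on that receptor and not directly on an inflammatory signal. In the liver, hepatocytes, Kupffer cells, endothelial cells and recruited leukocytes can all respond to LPS. In bulk tissue a smaller number of cells of a type and less RNA per cell cannot be told apart.

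The CON libraries held 5927348 to 10351491 counts each and the LPS libraries 4348478 to 19967417. Expression is given as CPM, a gene's share of its library's counts on a common scale set by TMM factors, and levels of different genes are compared only per kilobase of gene length. Summed hepatocyte markers were 64014 to 80067 CPM in CON and 42172, 49684 and 76988 CPM in LPS replicates 1, 2 and 3, so they were abundant in every library. Of 12 tested, 6 had a higher and 6 a lower estimate. ALB and CYP2E1 had all LPS values below all CON values, a pattern of 9.8% of tested genes. SERPINA1 was low throughout, at 1.23 to 7.20 CPM. The LPS libraries differed widely among themselves. LPS replicate 2 lay near or below the CON libraries for most of these genes. LPS replicate 3, the deepest library, had the highest level of 8 of the 9 genes. Its TMM factor was 0.735, against 0.979 to 1.11 in the other libraries, which raises its CPM relative to scaling by total counts. Across the 12774 tested genes, 27.2% were highest in LPS replicate 3.

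Every one of the 9 genes had a higher estimate in LPS than in CON liver, against 50.5% of all tested genes, and their median log2 fold change was 1.30 against 0.01. None passed the threshold of an adjusted p below 0.05 and a fold above 1.5 in the edgeR quasi-likelihood test (0 of 9), and over all genes 7 passed as higher, or 0.0548%, and 0 as lower. At an unadjusted p below 0.05, 4 of 9 were higher (ZFP36, TNIP1, TNIP2 and DUSP1), where 6.18% of tested genes were higher and 6.33% lower. Only TNIP1 had 3 LPS values above all 3 CON values, a pattern of 6.52% of tested genes, and 9.8% had the opposite one. An exact permutation test of 3 libraries against 3 cannot give a two-sided p below 0.1. The genes were not chosen blind to these data, so the shares above are a description and not a test.

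**Figure D1:**
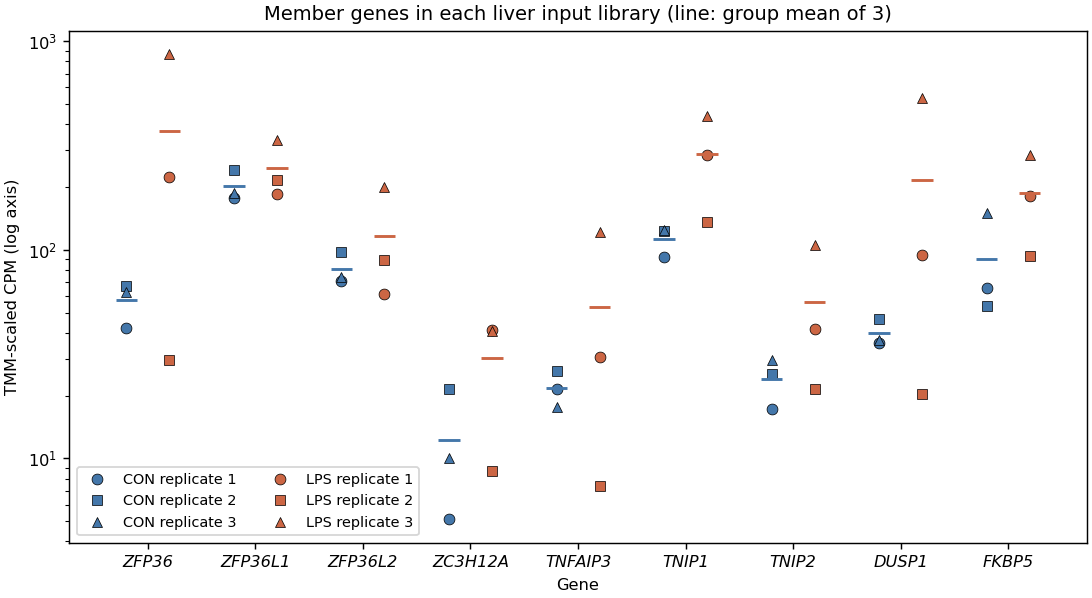
Expression of the 9 genes in each library, in TMM-scaled CPM on a log axis, with 3 CON and 3 LPS points for each gene. For ZFP36 the LPS points run from 29.8 to 864 CPM and enclose the CON points, while the 3 LPS points of TNIP1, from 136 to 440 CPM, all lie above its CON points.

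ZFP36 (ENSSSCG00000028056, chromosome 6, 48052137 to 48066257, plus strand, on a pig genome build that the sources used here do not name) was at 42.3, 67.0 and 62.6 CPM in CON replicates 1 to 3 and at 224, 29.8 and 864 CPM in LPS replicates 1 to 3. LPS replicates 1 and 3 were above every CON library and LPS replicate 2 was below every one, so the groups overlapped. The means were 57.3 ± 13.2 CPM in CON and 373 ± 436 CPM in LPS (SD, n = 3). The log2 fold change was 2.70 (SE 0.93), a 6.51-fold difference, with an edgeR adjusted p of 0.291.

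ZFP36 differed more among LPS libraries than between the group means. Relative to the CON mean, LPS replicates 1, 2 and 3 held 3.91, 0.520 and 15.1 times its level, and replicate 3 was 29.0 times replicate 2. On the log2 scale the LPS libraries spanned 4.85, wider than for 99.6% of tested genes, and the CON libraries spanned 0.66. The low value of LPS replicate 2 was not at the limit of counting, since its 95% Poisson interval of 25.6 to 34.4 CPM did not reach that of CON replicate 1, 38.5 to 46.3 CPM. Such intervals cover counting error only.

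The model of ZFP36 shares 586 exonic bases with PAF1 on the opposite strand, a subunit of a transcription elongation complex. Without the strand setting of the counting, reads of the pair cannot be told apart there. PAF1 itself was at 99.1, 73.0 and 81.8 CPM in CON and 122, 88.2 and 199 CPM in LPS libraries, a log2 fold change of 0.69 (SE 0.36) with an adjusted p of 0.474. A second overlapping gene, ENSSSCG00000046487, shares 383 exonic bases and had no count in any library. The other 8 genes overlap no other gene of the table.

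ZFP36L1 (ENSSSCG00000028304, chromosome 7, 92490011 to 92495574, minus strand), the paralog with the highest level in CON liver, was at 178, 241 and 187 CPM in CON and 185, 216 and 336 CPM in LPS libraries. Its groups overlapped, with LPS replicate 3 alone above the CON range on the TMM scale. By share of total counts it was not, at 4916 of 19967417 counts against 1543 of 5927348 in CON replicate 2. The log2 fold change was 0.28 (SE 0.34) with an edgeR adjusted p of 0.768.

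ZFP36L2 (ENSSSCG00000038549, chromosome 3, 97200406 to 97204700, plus strand) was at 70.9, 98.1 and 74.3 CPM in CON and 61.1, 89.5 and 200.2 CPM in LPS libraries. LPS replicate 1 was below every CON library, replicate 2 was within their range and replicate 3 was above it. The log2 fold change of 0.53 (SE 0.44) had an adjusted p of 0.657 and turned to -0.091 when LPS replicate 3 was left out. Neither paralog had the LPS order of ZFP36, in which replicate 3 was above replicate 1 and replicate 1 above replicate 2.

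The make-up of the family therefore varied by library. Per kilobase, ZFP36 made up 19.3%, 21.8% and 25.2% of the summed level of the 3 genes in the CON libraries and 56.4%, 12.1% and 69.1% in LPS replicates 1, 2 and 3. ZFP36L1 held 51.2% to 55.1% in CON libraries and 31.5%, 59.4% and 18.2% in the LPS libraries. The ratio of ZFP36 to ZFP36L1, which does not depend on library scaling, was 0.351, 0.410 and 0.493 in CON and 1.79, 0.203 and 3.79 in LPS libraries. ZFP36 was thus the most abundant of the 3 in LPS replicates 1 and 3, and ZFP36L1 in LPS replicate 2 and in every CON library.

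**Figure D2:**
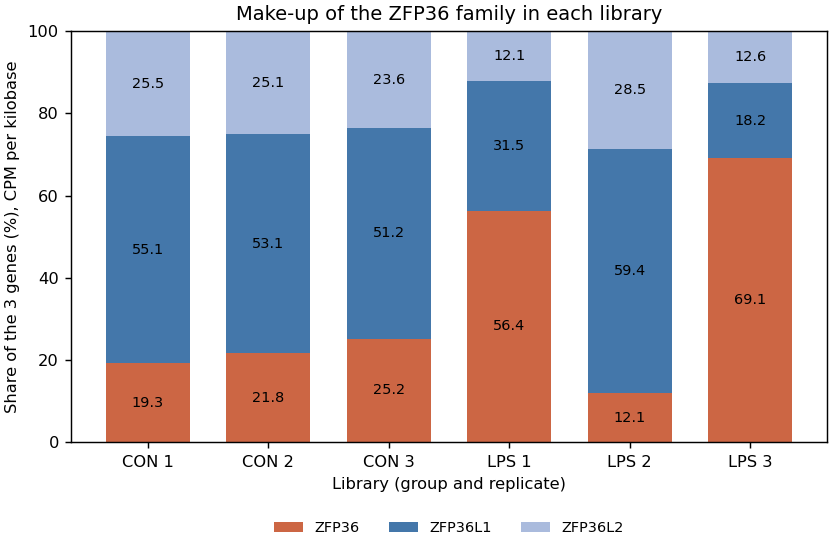
Shares of ZFP36, ZFP36L1 and ZFP36L2 in their summed level per kilobase of gene length in each of the 6 libraries, in percent. ZFP36 held 69.1% in LPS replicate 3. The summed level, which is not drawn, was 73.8 to 104 CPM per kb in CON libraries and 134, 83.4 and 422 in LPS replicates 1, 2 and 3.

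ZC3H12A (ENSSSCG00000037815, chromosome 6, 93541334 to 93551195, plus strand) was at 5.09, 21.6 and 9.99 CPM in CON and 41.4, 8.67 and 40.9 CPM in LPS libraries. On the TMM scale it was the single gene of the 9 whose highest value was not in LPS replicate 3, though replicates 1 and 3 were nearly level. By share of total counts replicate 1 was further above replicate 3, at 190 of 4348478 against 599 of 19967417 counts. Its CON libraries already spanned 2.03 on the log2 scale, and the log2 fold change of 1.33 (SE 0.65) had an edgeR adjusted p of 0.449. Without CON replicate 2 the estimate was 2.01.

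Of 21 transcripts in the table known to be targets of ZFP36 or ZC3H12A, from a list of 24, 14 were tested, 12 with a higher and 2 with a lower estimate, and 0 passed in either direction. At an unadjusted p below 0.05, 5 were higher and 0 lower, and the median log2 fold change was 0.82. With no filter on low counts all 21 were tested, 9 passed as higher in edgeR and the median was 1.95, a value that includes genes with few counts, whose fitted changes depend on the prior count. DESeq2, run without that filter, gave an adjusted p for 13 of them, and 2 passed as higher. Its median of 1.98 was over all 21 and also includes genes with few counts. The neutrophil chemokine CXCL2 was at 3.40, 2.19 and 4.94 CPM in CON and 56.0, 1.47 and 136 CPM in LPS libraries, a log2 fold change of 4.19 (SE 1.16) with an edgeR adjusted p of 0.220. JUNB, an AP-1 subunit, was at 19.9, 55.3 and 24.9 CPM in CON and 168, 19.0 and 250.3 CPM in LPS libraries. In both genes LPS replicate 2 was below the CON mean and replicate 3 was highest, as for ZFP36.

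Of 27 tested genes for deadenylation, decapping and decay, 17 had a higher and 10 a lower estimate, 0 passed in edgeR, 1 was higher at an unadjusted p below 0.05, and the median log2 fold change was 0.10. TOB2, an adaptor of the CCR4-NOT deadenylase, was at 68.4, 89.7 and 74.2 CPM in CON and 147, 88.7 and 160 CPM in LPS libraries, with a log2 fold change of 0.77 (SE 0.33) and an adjusted p of 0.383. The poly(A)-binding protein gene PABPC1 and the poly(A) ribonuclease gene PARN had log2 fold changes of 0.59 (SE 0.34) and 0.54 (SE 0.33).

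Among 16 tested genes for other RNA-binding regulators, 11 had a higher and 5 a lower estimate, 0 passed in edgeR, 0 were at an unadjusted p below 0.05, and the median was also 0.10. Scaling to total counts turned both medians, to -0.08 for the decay genes and -0.06 for the RNA-binding regulators. ZC3H12C, a relative of regnase-1, was at 2.23, 1.87 and 2.37 CPM in CON and 2.40, 1.15 and 9.90 CPM in LPS libraries. N4BP1 and KHSRP, a ribonuclease-like restriction factor and a decay-promoting AU-rich element binder, had log2 fold changes of 0.65 (SE 0.50) and 0.40 (SE 0.31).

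In the ubiquitin-editing group, the LPS libraries spread more for the enzyme TNFAIP3, whose log2 range was wider than that of 98.8% of tested genes, than for the partner TNIP1, at 79.0%. TNIP1 (ENSSSCG00000017091, chromosome 16, 71926133 to 71979967, plus strand) was at 92.5, 122 and 124 CPM in CON and 286, 136 and 440 CPM in LPS libraries. All 3 LPS values were above all 3 CON values, LPS replicate 2 by a small margin. The counting interval of LPS replicate 2 was 127 to 146 CPM. It overlapped those of CON replicate 2, 114 to 131 CPM, and CON replicate 3, 118 to 131 CPM. It lay above that of CON replicate 1, 86.9 to 98.3 CPM. The place of LPS replicate 2 above CON replicates 2 and 3 was therefore within counting error. The means were 113 ± 17.9 and 287 ± 152 CPM (SD, n = 3), and the log2 fold change of 1.34 (SE 0.43), or 2.54-fold, had an edgeR adjusted p of 0.257.

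TNFAIP3 (ENSSSCG00000004154, chromosome 1, 26473938 to 26489822, minus strand) was at 21.5, 26.2 and 17.6 CPM in CON and 30.7, 7.36 and 121 CPM in LPS libraries. LPS replicate 2 was below every CON library, with a 95% counting interval of 5.37 to 9.85 CPM against 15.1 to 20.4 CPM for the lowest CON library, and LPS replicate 3 was 16.5 times replicate 2. The log2 fold change was 1.30 (SE 0.78) with an edgeR adjusted p of 0.532. It turned to -0.18 without LPS replicate 3, so the direction of TNFAIP3 rests on that library.

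TNIP2 (ENSSSCG00000008691, chromosome 8, 1533424 to 1554625, minus strand) was at 17.2, 25.5 and 29.7 CPM in CON and 41.6, 21.4 and 105 CPM in LPS libraries. LPS replicates 1 and 3 were above the CON range and replicate 2 was within it. The log2 fold change was 1.22 (SE 0.53) with an edgeR adjusted p of 0.384, and without LPS replicate 3 it was 0.40.

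The enzyme and its partners did not keep a fixed proportion. Per kilobase, the ratio of TNFAIP3 to TNIP1 was 0.280, 0.258 and 0.170 in CON libraries and 0.129, 0.0651 and 0.332 in LPS replicates 1, 2 and 3, so it was lowest in LPS replicate 2 and highest in LPS replicate 3. The ratio of TNIP2 to TNIP1 stayed between 0.598 and 0.764 in CON and between 0.467 and 0.767 in LPS libraries. TNFAIP3 was below TNIP1 and below TNIP2 in all 6 libraries.

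Of 25 tested partners and substrates of A20, 16 had a higher and 9 a lower estimate, 0 passed, and 1 was higher at an unadjusted p below 0.05, with a median log2 fold change of 0.19. That gene was TNIP3, the third A20-binding TNIP gene, at 0.626, 1.72 and 0.989 CPM in CON and 3.49, 2.29 and 12.8 CPM in LPS libraries. Its groups did not overlap, a pattern that 6.52% of tested genes showed with LPS above CON. TNIP3 had the smallest p of the list and passed the filter on low counts through its LPS libraries, and both favour this pattern. At these low levels LPS replicate 2 was only slightly above CON replicate 2, and no counting interval was computed. The log2 fold change of TNIP3, 2.55 (SE 0.72), had an adjusted p of 0.220. BIRC3, a ubiquitin ligase of the TNF receptor complex, was at 65.9, 40.8 and 34.7 CPM in CON and 71.3, 26.2 and 389 CPM in LPS libraries. TAB2, an adaptor of the kinase TAK1, had a log2 fold change of 0.70 (SE 0.39).

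DUSP1 (ENSSSCG00000016991, chromosome 16, 51458020 to 51461086, plus strand) was at 35.6, 46.7 and 36.9 CPM in CON and 94.6, 20.5 and 533 CPM in LPS libraries. LPS replicate 2 was again below every CON library, with a 95% counting interval of 17.0 to 24.4 CPM against 32.2 to 39.2 CPM for CON replicate 1, and LPS replicate 3 was 26.1 times replicate 2. The means were 39.7 ± 6.09 and 216 ± 277 CPM (SD, n = 3), and the log2 fold change of 2.45 (SE 0.93), or 5.45-fold, had an edgeR adjusted p of 0.338. Leaving out LPS replicate 3 lowered it to 0.55.

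Other phosphatases and their kinases were mixed. Of 19 tested genes of that list, 13 had a higher and 6 a lower estimate, 0 passed, 2 were higher and 1 lower at an unadjusted p below 0.05, and the median log2 fold change was 0.09. DUSP2, a phosphatase of activated leukocytes, was at 3.75, 13.1 and 9.49 CPM in CON and 22.5, 8.998 and 105 CPM in LPS libraries. MAPKAPK2, the p38 substrate kinase that phosphorylates tristetraprolin, was at 29.4, 41.2 and 36.5 CPM in CON and 56.9, 38.4 and 112 CPM in LPS libraries, with a log2 fold change of 0.96 (SE 0.41). MAP2K6, a kinase that activates p38, had all 3 LPS values (1.74, 3.44 and 1.78 CPM) below all 3 CON values (7.33, 4.53 and 5.64 CPM), and its log2 fold change of -1.34 (SE 0.45) had an adjusted p of 0.274.

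FKBP5 (ENSSSCG00000001549, chromosome 7, 31440821 to 31585350, minus strand) was at 65.4, 53.6 and 151 CPM in CON and 180.3, 93.1 and 285 CPM in LPS libraries. LPS replicates 1 and 3 were above every CON library, and replicate 2 was within the CON range because CON replicate 3 stood above the other CON libraries. The means were 89.9 ± 52.9 and 186 ± 96.3 CPM (SD, n = 3), and the log2 fold change of 1.05 (SE 0.51) had an edgeR adjusted p of 0.436. Without CON replicate 3 it was 1.67.

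Of 16 tested genes known to be induced by glucocorticoids, 12 had a higher and 4 a lower estimate, 0 passed, 6 were higher at an unadjusted p below 0.05, and the median log2 fold change was 0.80. The stress-response gene GADD45B was at 10.5, 12.7 and 16.1 CPM in CON and 87.7, 8.83 and 362 CPM in LPS libraries, a log2 fold change of 3.55 (SE 1.02) with an adjusted p of 0.224. PER1, a clock gene, was at 55.1, 124 and 129 CPM in CON and 378, 101 and 579 CPM in LPS libraries. CEBPB, a transcription factor of the acute phase response, was at 167, 338 and 236 CPM in CON and 738, 228 and 741 CPM in LPS libraries. These genes also answer to inflammatory signals. LPS replicates 1 and 3 were above the CON range for all 3, against 32.1% and 34.9% of all tested genes. The 3 were named for the smallest p of the list, which favours such values.

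The receptor's own machinery was tested as 14 genes, of which 9 had a higher and 5 a lower estimate, 0 passed, 3 were higher and 1 lower at an unadjusted p below 0.05, and the median was 0.34. The chaperone genes DNAJB1 and HSP90AA1 had log2 fold changes of 2.30 (SE 0.77) and 1.21 (SE 0.49). DNAJB1 was at 61.0, 58.6 and 70.1 CPM in CON and 242, 41.9 and 650 CPM in LPS libraries. NCOA2, a coactivator of the receptor, was lower in every LPS library (32.1, 35.3 and 45.5 CPM) than in any CON library (76.9, 55.3 and 67.3 CPM), with a log2 fold change of -0.82 (SE 0.30) and an adjusted p of 0.314.

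Per kilobase of gene length, ZFP36L1 was the most abundant of the 9 genes in CON liver, at 46.3 ± 7.81 CPM per kb (SD, n = 3), above 94.2% of tested genes. ZFP36L2, DUSP1, TNIP1 and ZFP36 followed at 21.6 ± 3.95, 20.4 ± 3.13, 19.9 ± 3.15 and 19.3 ± 4.46, which do not differ beyond their spread. FKBP5 at 13.7 ± 8.08 and TNIP2 at 13.6 ± 3.57 came next, and TNFAIP3 at 4.62 ± 0.918 and ZC3H12A at 4.58 ± 3.17 were lowest. The steps from ZFP36L1 to ZFP36L2 and from TNIP2 to TNFAIP3 were larger than the SDs on either side. In the LPS group the means of ZFP36 and DUSP1 were 126 ± 147 and 111 ± 142 CPM per kb, with SDs larger than the means.

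**Figure D3:**
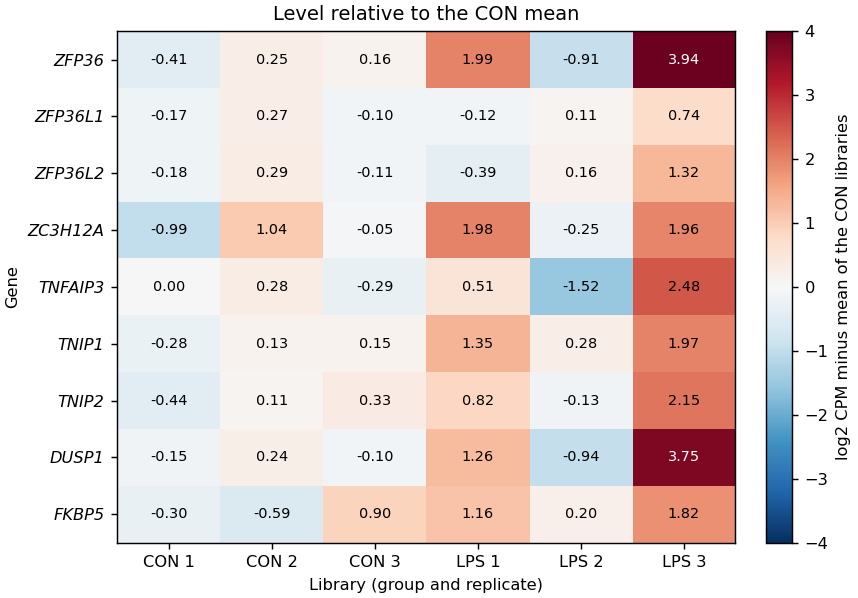
Each gene's log2 level in each library minus its mean log2 level in the CON libraries. The median over the 9 genes was 1.16, -0.13 and 1.97 in LPS replicates 1, 2 and 3 and -0.28, 0.25 and -0.05 in CON replicates 1, 2 and 3.

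The LPS libraries therefore kept a common order over most of the genes. On the TMM scale, LPS replicate 3 was above every CON library for 9 of 9 genes, against 34.9% of all tested genes. By share of total counts, ZFP36L1 did not hold to this. LPS replicate 1 was above every CON library for 7 of 9, against 32.1%. The exceptions for replicate 1 were ZFP36L1 and ZFP36L2. LPS replicate 2 was below every CON library for ZFP36, TNFAIP3 and DUSP1, 3 of 9, against 26.5%. The full order of replicate 3 over 1 over 2 held for 6 of 9 genes and for 22.8% of tested genes.

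Neutrophil and blood cell markers ran in the same order. Summed over 6 tested neutrophil markers, of 12 named and 8 in the table, the level was 14.1 to 25.3 CPM in CON libraries and 168, 73.9 and 297 CPM in LPS replicates 1, 2 and 3. Of these markers 5 of 6 had a higher estimate and 1, S100A8, at 4, 2 and 4 counts in CON libraries, passed in edgeR. S100A8, S100A12, CSF3R and LTF had all LPS values above all CON values, a pattern of 6.52% of tested genes. For LTF this rested on 8 counts in LPS replicate 2 and 10 in CON replicate 3. S100A8 and LTF passed the filter on low counts only through their LPS libraries, so their place in the test already favours higher LPS values. ELANE had the lower estimate, at 1.34, 1.09 and 1.88 CPM in CON and 1.74, 0.491 and 0.683 CPM in LPS libraries. MPO, untested, had 13, 5 and 10 counts in CON and 5, 3 and 4 in LPS libraries. MMP8, also untested, had 0, 0 and 0 and 18, 5 and 271. Summed over 3 tested blood cell markers, of 9 named, the level was 77.1 to 102 CPM in CON and 248, 99.0 and 366 CPM in LPS libraries. For Kupffer cell or macrophage markers 11 of 11 had a lower estimate, whereas 50.5% of tested genes had a higher one. Of these, 0 passed and 3 were lower at an unadjusted p below 0.05 in edgeR, where 6.33% of tested genes were. Only VSIG4, TIMD4 and MRC1 had all LPS values below all CON values, a pattern of 9.8% of tested genes. The sums were 2011 to 3261 CPM in CON and 1376, 2316 and 1888 CPM in LPS libraries. No marker in the table was at 0 in all libraries. The part of cell composition in the levels of the 9 genes was not tested.

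With LPS replicate 2 left out, 4 of 9 genes passed as higher, where 3.76% of tested genes did. Their log2 fold changes were 3.25 for ZFP36 (adjusted p = 0.00618), 2.99 for DUSP1 (0.0175), 1.69 for TNIP1 (0.0189) and 1.62 for TNIP2 (0.0434) in edgeR. TNFAIP3, ZC3H12A and FKBP5 had 1.82, 1.77 and 1.38 and did not pass, nor did ZFP36L1 at 0.37 and ZFP36L2 at 0.70. With LPS replicate 3 left out instead, 0 of 9 passed in edgeR, where 0.31% of tested genes passed as higher. At an unadjusted p below 0.05, 1 of 9 was higher, where 5.71% of tested genes were. The estimates of ZFP36 and TNIP1 were then 1.16 and 0.92.

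**Figure D4:**
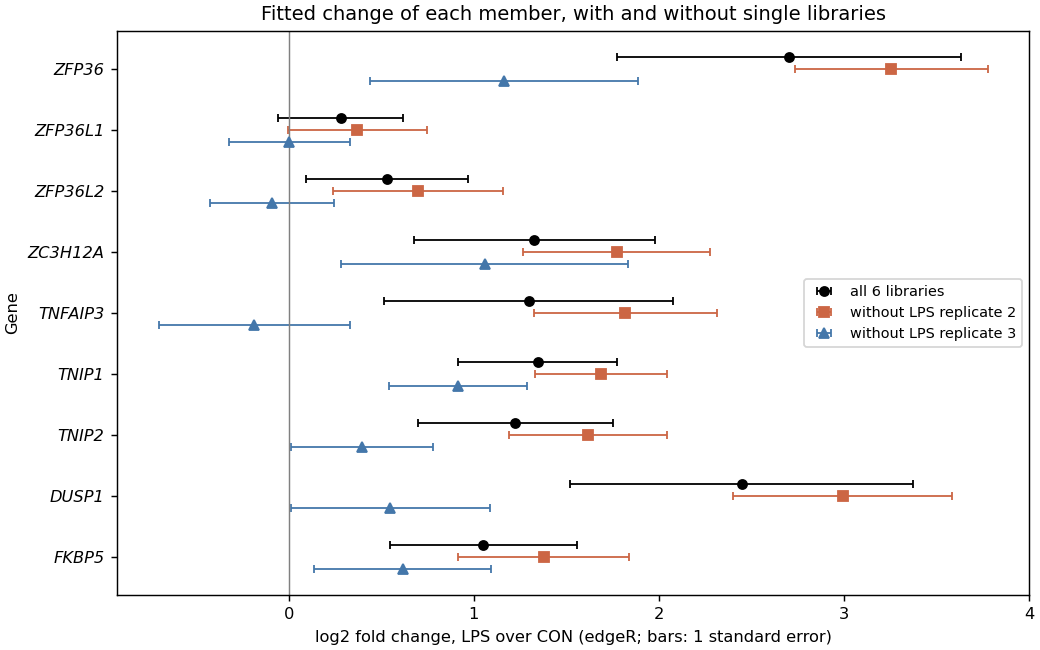
Log2 fold change (LPS minus CON) of each gene with its SE from all 6 libraries, and without LPS replicate 2 or 3. ZFP36 moved from 2.70 to 3.25 without LPS replicate 2 and to 1.16 without LPS replicate 3, whereas TNFAIP3 and ZFP36L2 crossed 0 without LPS replicate 3, at -0.18 and -0.091.

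With no filter on low counts 5 of 9 genes passed (ZFP36, ZC3H12A, TNFAIP3, TNIP1 and DUSP1), where 2.28% of genes passed as higher. DESeq2 called 0 of 9, where it called 1.96% as higher, and 6 of 9 were higher at an unadjusted p below 0.05, where 7.1% of genes were. ZFP36L1, ZFP36L2 and FKBP5 passed under none of the alternatives run.

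Of 22 tested genes for other feedback inhibitors, 14 had a higher and 8 a lower estimate, 0 passed, 9 were higher and 0 lower at an unadjusted p below 0.05, and the median log2 fold change was 0.88. SOCS3, which blocks cytokine receptor signaling through JAK kinases, was at 17.5, 45.1 and 27.6 CPM in CON and 289, 18.8 and 627 CPM in LPS libraries, a log2 fold change of 3.38 (SE 0.98) with an adjusted p of 0.230. CISH, of the same family, was at 23.7, 18.4 and 12.5 CPM in CON and 146, 13.4 and 127 CPM in LPS libraries. BCL3, an atypical IκB protein, was at 21.5, 27.0 and 28.1 CPM in CON and 195, 15.5 and 164 CPM in LPS libraries. In CISH and BCL3, as in ZC3H12A, LPS replicate 1 was highest. With LPS replicate 2 left out, 9 genes of this list passed as higher, among them SOCS3, CISH and BCL3, as did 5 of the 16 glucocorticoid-induced genes, 4 of the 14 tested ZFP36 or ZC3H12A targets, 4 of the 14 receptor machinery genes, 2 A20 partners, DUSP2 and 0 of the decay and RNA-binding genes, and with LPS replicate 3 left out 0 of any of these lists did. Without LPS replicate 3 the medians of the targets, the RNA-binding regulators, the phosphatases and kinases and the decay genes were below 0, at -0.25, -0.18, -0.094 and -0.019, and those of the other feedback inhibitors and the glucocorticoid-induced genes were 0.19 and 0.24.

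**Figure D5:**
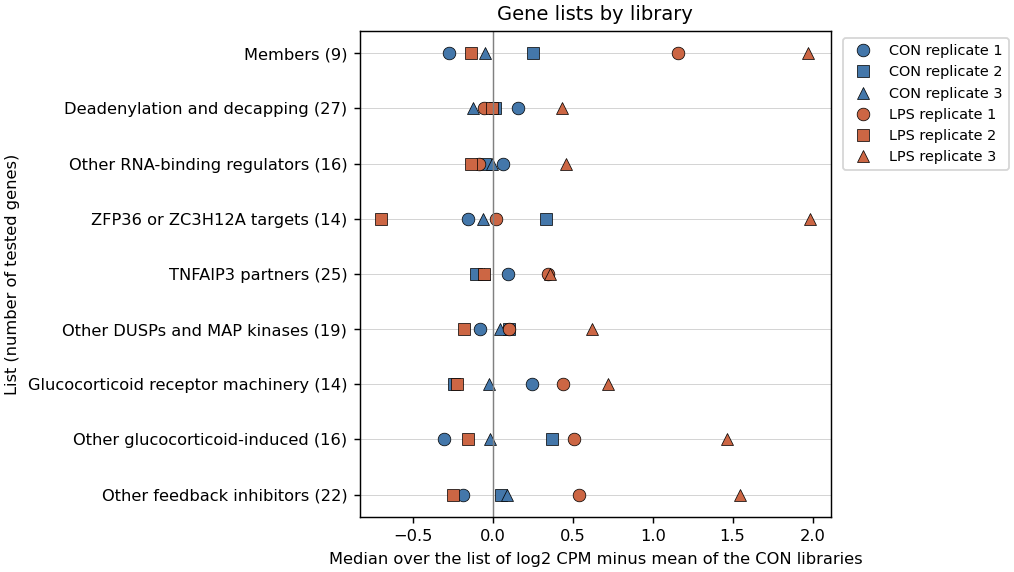
Median over the tested genes of each list of the log2 level minus the CON mean, for each of the 6 libraries. Other feedback inhibitors stood at 0.54, -0.25 and 1.54 and known ZFP36 or ZC3H12A targets at 0.02, -0.70 and 1.98 in LPS replicates 1, 2 and 3, while the decay machinery lay between -0.06 and 0.43.

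The genes most like 4 of these brakes were ranked by Pearson's r of log2 CPM over the 6 libraries, which share depth and group, among 6898 genes with a symbol and a mean of at least 10 CPM. For ZFP36 the top 3 were CD40 (r = 0.997), S1PR3 (0.996) and MTPAP (0.993). CD40, a TNF receptor family member, was at 14.2, 17.5 and 15.7 CPM in CON and 47.3, 10.5 and 139 CPM in LPS libraries. For DUSP1 they were CSF1 (0.996), BHLHE40 (0.994) and STAT3 (0.994), with STAT3, the transcription factor of the hepatic acute phase response, at 252, 266 and 243 CPM in CON and 431, 169 and 878 CPM in LPS libraries. TNFAIP3 was matched by TXNRD1 (0.992), CCNL1 (0.990) and NUP93 (0.990), and FKBP5 by FTSJ1 (0.995), KANSL3 (0.994) and LRRC59 (0.991). With 6 libraries these values are a description only.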

How the data were processed

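For the liver input libraries the authors deposited 1 table of raw, unnormalized counts per gene, with gene coordinates and gene lengths. Per the labels, the submitters' processing notes name cutadapt 1.9.3 and HISAT2, and the builds galGal6 and hg38, which are chicken and human assemblies. The pig build behind the coordinates, the counting program, its strand setting and its treatment of reads mapping to several genes are not named in these sources. The library kit marks strand. Columns were matched to libraries by group and replicate number, with 0 left unmapped, and CON replicates 1 and 2 have 2 sequencing entries each but 1 column each. Of the 31908 identifiers, 15029 could be paired with a symbol.

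Genes were kept by filterByExpr (minimum count 10) and compared in R 4.3.3 with edgeR 4.0.16 (TMM, robust glmQLFit, glmQLFTest). A call needed a Benjamini-Hochberg adjusted p below 0.05 over all 12774 tested genes and a fold above 1.5. The SE was taken as |log2 fold change| over the root of edgeR's F. CPM are TMM-scaled, counting intervals are exact Poisson, and levels were divided by the deposited gene length. The script was tested on simulated data.

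The comparison was repeated with DESeq2 1.42.0 and with limma-voom from limma 3.58.1, with the replicate number as a block, with each library left out, with RLE factors or total counts in place of TMM, with 2 other filters (at least 1 count in any library, or 10 in each), and with no fold threshold. The genes, the lists of related genes and the marker lists were chosen from general knowledge with earlier results of these data known. Named genes are all 9, the 3 tested genes of each list with the smallest p (1 of them is not reported here), and the 3 genes with the highest Pearson's r to ZFP36, TNFAIP3, DUSP1 and FKBP5.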

Additional observations from a re-analysis of the deposited data

How the results depend on the processing

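Over all tested genes, the main edgeR test called 7 genes. Scaling to total counts called 12, no filter on low counts 885, DESeq2 420, limma-voom 2 and the replicate block 51. Requiring at least 10 counts in every library left 0 calls in edgeR, with 1276 genes at an unadjusted p below 0.05. Leaving out 1 library at a time gave 0 to 982 calls, the highest without LPS replicate 2, 58 without LPS replicate 3, 1 without LPS replicate 1 and 0 when any CON library was left out (866 to 1290 genes at an unadjusted p below 0.05). RLE factors and dropping the fold threshold stayed within 1.5 times. Of the 9 genes, 0 were called in the main test, 5 without the filter, and 0 to 4 with 1 library left out. The causes of these shifts were not tested.

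Of 117 values of the 9 genes under the alternatives, 106 kept direction and side of the threshold, 9 passed it, and 2 turned, both without LPS replicate 3. With 1 library left out, ZFP36L2 ranged from -0.091 to 0.85 and TNFAIP3 from -0.18 to 1.82. No scaling alternative turned a sign, although scaling to total counts moved the median of all tested genes from 0.01 to -0.12. It moved the median of the 9 genes from 1.30 to 0.95. Limma-voom gave lower estimates for ZFP36 (1.66), DUSP1 (1.36) and TNFAIP3 (0.57), and so did the replicate block (1.85, 1.38 and 0.53). Same-numbered CON and LPS libraries had correlations of deviations from the group means of -0.24, 0.22 and 0.03. Such deviations sum to 0 within each group, so these values cannot decide whether the numbers pair the libraries. The replicate block called 0 of 9 genes. CON replicate 1 correlated best with LPS replicate 3 (0.220), nearly level with CON replicate 2 and LPS replicate 2 (0.219). Counting error is widest where counts are lowest, as for TNFAIP3 and ZC3H12A in LPS replicate 2 (45 and 53 counts).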

Other observations

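Marker lists for other cell types of the liver gave these summed levels. T or NK cell markers (9 tested) were at 145 to 198 CPM in CON libraries and 73.3, 145 and 162 CPM in LPS replicates 1, 2 and 3. B or plasma cell markers (5 tested) were at 18.1 to 67.8 CPM in CON and 10.7 to 25.5 CPM in LPS libraries. Endothelial markers (8 tested) were at 263 to 579 CPM in CON and 217 to 368 CPM in LPS libraries. Cholangiocyte or stellate cell markers (10 tested) were at 953 to 1355 CPM in CON and 725 to 1503 CPM in LPS libraries, so the ranges of the groups overlapped for these 4 lists.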
